A study of Mus musculus with 6 samples.

Results

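Interferon-induced genes were examined for H3K9me3, trimethylation of lysine 9 of histone H3, in endothelial progenitor cells (EPCs) of mouse bone marrow. The 59 genes were chosen by symbol, with earlier results of these same libraries in view, and their regions by the gene name that the submitters' annotation gave to each autosomal region. A region exists only where signal was called in these libraries, so the presence of a region was also set by the data. This left 72 regions of 57177 on the autosomes (58511 in all), each 400 bp long, and these belonged to 36 of the 59 genes. The counts over the list are therefore a description, and support nothing about why these genes were listed.

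H3K9me3 was profiled by CUT&Tag, in which an antibody-tethered transposase cuts and tags the DNA beside the mark. The cells came from C57BL/6J mice aged 8 weeks. M-EPCs were from males, F-EPCs from intact females, and OVX-EPCs from females whose ovaries had been removed at about 35 days. In each group the cells were depleted of lineage-committed cells, sorted on magnets for Sca-1 and CD31, and expanded in endothelial growth medium. There were 2 libraries for each group. Nothing in the sources used here says that the 2 came from separate animals or cultures. The p-values therefore measure only a spread between libraries, which may be technical. The test pools that spread over all regions or genes of similar signal. A standard error (SE) given for a gene is thus not that of its own libraries alone. Since the libraries were made from many cells, fewer cells carrying the mark and less mark per cell cannot be told apart.

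Reads in all regions numbered 501237 and 573821 in the M-EPC libraries and 501840 and 548290 in the OVX-EPC libraries. The share of reads on chromosome X was 2.40% and 2.43% in OVX-EPCs and 1.20% in both M-EPC libraries. The Y-linked genes Kdm5d and Eif2s3y had 28 and 20 reads in M-EPCs and 0 and 0 in OVX-EPCs. All regions of chromosome Y together had 666 and 670 reads in M-EPCs and 581 and 695 in OVX-EPCs, so that total did not separate the groups. One F-EPC library had no read outside chromosomes 1, 10 to 15 and the start of chromosome 16. The other was incomplete as well, with no read on chromosomes X and Y or in the member regions of chromosomes 3, 5, 6, 7 and 8. F-EPCs were therefore compared only in the part that the first library covers. It has 26999 regions, which held 31 of the member regions and 15 of the member genes. Those regions had 288353 and 252356 reads in the F-EPC libraries. The values are reads divided by 1 size factor for each library, called signal here, and a log2 fold change is a difference of mean log2(signal + 1).

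Interferons are secreted when cells sense a virus or another microbe. Type I interferon acts on target genes through the interferon-stimulated response element in their promoters. Interferon gamma acts through another element, the gamma-activated site. The induced genes block viral replication, sense foreign nucleic acid, attack the vacuoles of intracellular microbes, or sustain the response itself. H3K9me3 is a mark of silent chromatin, found mainly over repeats and gene clusters.

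The response element core, TTTC, any 2 bases, TTTC, on either strand, lay in 15 of the 72 member regions (20.8%), against 3.74% of all autosomal regions of the series. Among the 24 member regions annotated as promoter within 1 kb of a gene start, 9 held it (37.5%), against 3.64% of all regions of that class. In the RefSeq promoter windows of 300 bases around a gene start it was present for 27 of the 43 member genes matched (62.8%) and for 3.99% of all genes. The gamma-activated site, TTCNNNGAA, was in 16.7% of the member regions and 9.99% of all autosomal regions. Some regions of the series are longer than those of the members, which gives them more room for a match. Base composition was close, with a median GC content of 48.0% in member regions and 48.5% in all. Regions with repeats over at least 50% of their bases made up 19.4% of the member regions and 29.2% of all. A match of letters is a description, and does not show that a factor was bound.

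The cores of 8 of these 9 promoter regions within 1 kb are shown because they mark where the letters of the known response element lie. The core of the Stat2 region lies too near the edge of the region to be shown with its surrounding bases. Each is given 5′ to 3′ on the strand of its gene, read from GRCm38.p6 with 10 bases on either side and the core in capitals. The 30 bases are identical in Ifi204 and Ifi211, 2 neighbouring genes of the PYHIN family on chromosome 1.
Ifi207, -98 bp from the nearest start: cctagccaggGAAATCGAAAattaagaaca
Ifi204, -132 bp: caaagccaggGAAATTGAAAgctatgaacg
Ifi211, -32 bp: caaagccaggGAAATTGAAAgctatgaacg
Rsad2, -115 bp: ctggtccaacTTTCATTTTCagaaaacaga
Mx2, -160 bp: ccagagaaatGAAAGTGAAActaagtagga
Eif2ak2, -1 bp: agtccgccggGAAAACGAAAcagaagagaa
Gbp3, 128 bp: aggagcatggTTTCGATTTCagttcctttt
Oasl2, -59 bp: ctccctgcagTTTCACTTTCaattcttgtc
Oasl2, -30 bp: caaagcttggTTTCTGTTTCcagtttctcc

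The whole RefSeq promoter windows of 3 genes whose promoter regions had lower signal in both OVX-EPC libraries than in both M-EPC libraries follow, with the core in capitals. Rsad2 (chr12:26456403-26456702, minus strand) and Ifi211 (chr1:173912997-173913296, minus strand) hold 1 core each, and Irf7 (chr7:141266375-141266674, minus strand) holds none in this window.
Rsad2: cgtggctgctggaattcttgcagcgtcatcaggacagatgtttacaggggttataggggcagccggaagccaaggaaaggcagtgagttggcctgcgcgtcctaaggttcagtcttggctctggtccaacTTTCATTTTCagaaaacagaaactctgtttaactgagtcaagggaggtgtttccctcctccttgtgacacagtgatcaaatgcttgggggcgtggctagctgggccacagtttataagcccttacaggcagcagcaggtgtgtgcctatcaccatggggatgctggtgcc
Ifi211: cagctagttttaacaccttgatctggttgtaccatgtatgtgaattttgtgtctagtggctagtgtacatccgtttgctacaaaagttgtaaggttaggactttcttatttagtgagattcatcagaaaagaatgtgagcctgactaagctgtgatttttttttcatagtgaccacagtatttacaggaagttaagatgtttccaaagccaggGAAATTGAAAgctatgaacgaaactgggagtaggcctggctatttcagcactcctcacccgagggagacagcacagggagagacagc
Irf7: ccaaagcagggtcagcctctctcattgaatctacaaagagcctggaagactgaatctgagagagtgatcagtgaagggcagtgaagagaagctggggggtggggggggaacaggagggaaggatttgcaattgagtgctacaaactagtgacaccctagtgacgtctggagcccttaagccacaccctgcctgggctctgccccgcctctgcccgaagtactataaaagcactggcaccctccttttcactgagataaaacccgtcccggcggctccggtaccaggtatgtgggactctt

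OVX-EPCs carried less H3K9me3 than M-EPCs over the interferon-induced genes as a group. The 72 regions summed to a signal of 853 and 736 in the M-EPC libraries and 444 and 475 in the OVX-EPC libraries. The log2 ratio of the group means was -0.79, with an SD between replicate sums of 0.12 on the log2 scale, against -0.06 over all autosomal regions. Per 10000 autosomal reads, member regions took 16.1 (95% Wilson interval 14.98 to 17.21) and 14.4 (13.4 to 15.4) in M-EPCs, and 8.97 (8.17 to 9.85) and 9.40 (8.61 to 10.3) in OVX-EPCs. These intervals cover counting error only. Without Iigp1, the gene with the largest difference, the log2 ratio was -0.64.

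Of the 72 regions, 31 had both OVX-EPC libraries below both M-EPC libraries, which is 43.1%, against 20.5% of all autosomal regions. The opposite order held for 2 regions, 1 of Ifi35 and 1 of Samd9l, against 20.6% of all. The median log2 fold change was -0.57 in the member regions and 0.00 in all. Of the 72, 58 were negative (80.6%), against 50.3% of all. At the level of genes, with signal summed over all regions of a gene, 19 of the 36 were lower without overlap, against 27.8% of all autosomal gene names, and 1, Ifi35, was higher, against 17.7% of all.

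**Figure D1:**
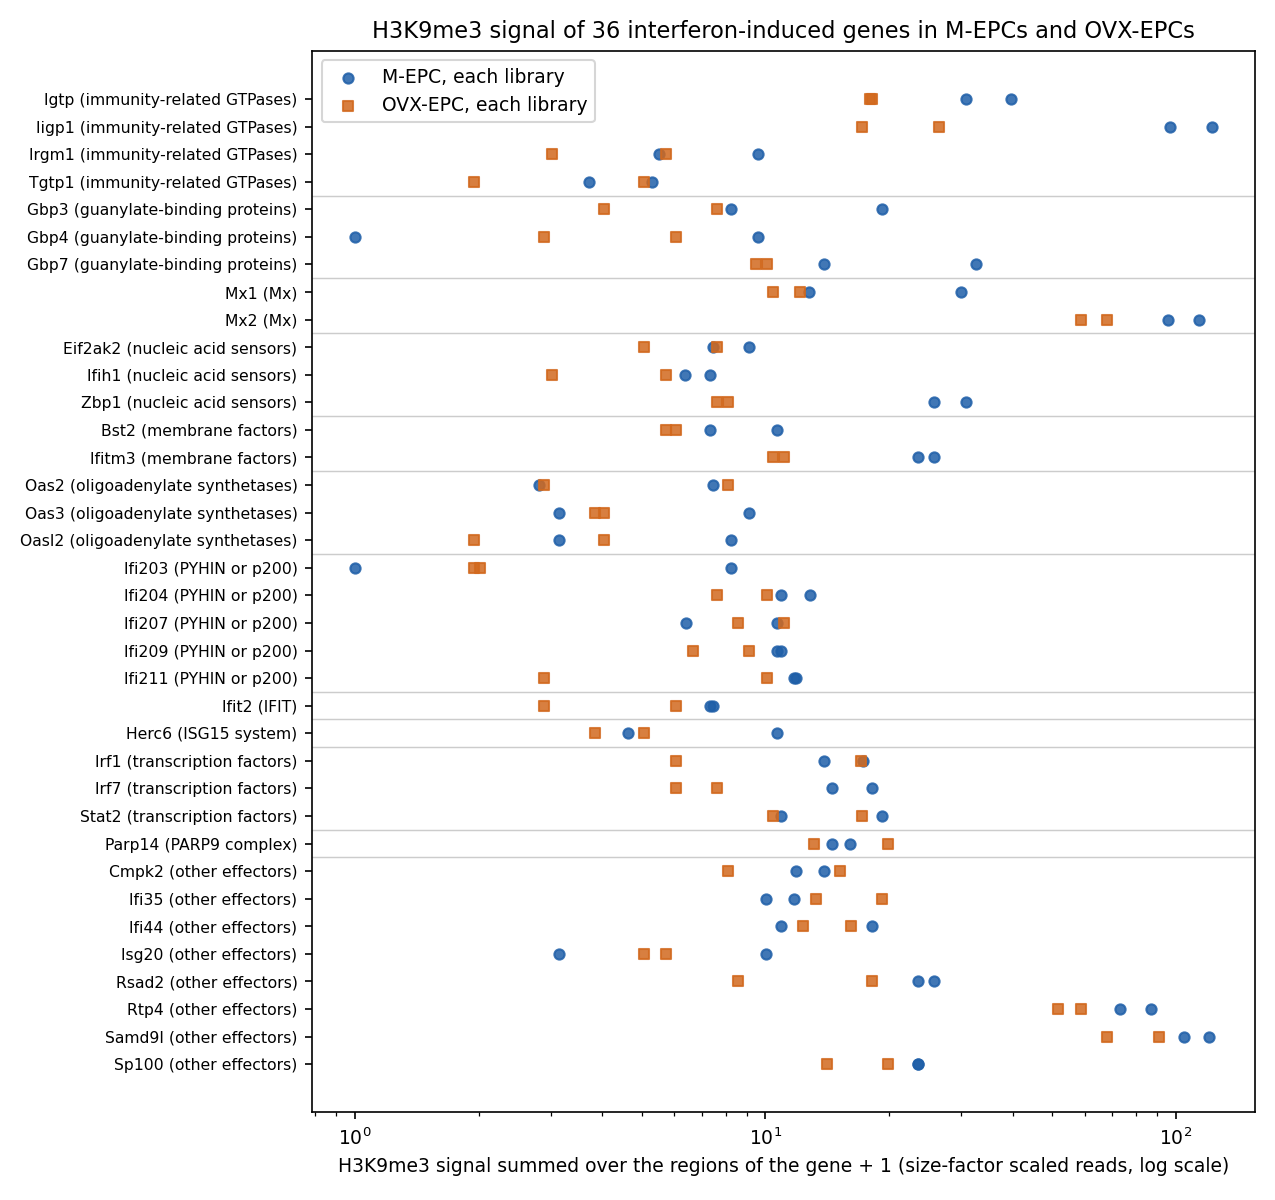
Summed H3K9me3 signal of the 36 genes in each library (x axis, size-factor scaled reads plus 1, log scale), with genes grouped by family on the y axis; circles are the M-EPC libraries and squares the OVX-EPC libraries. The squares lie left of both circles for 19 genes, furthest for Iigp1, and right of both for Ifi35.

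The immunity-related GTPases, which disrupt vacuoles that hold intracellular microbes, had lower signal in OVX-EPCs mainly through Iigp1. All 10 of their regions had a negative log2 fold change, against 50.3% of all autosomal regions. Of the 10, 7 were lower without overlap, against 20.5% of all. Among the 4 regions left without Iigp1, only that of Igtp 2 to 3 kb before its start was lower without overlap. The summed signal of the family had a log2 ratio of -1.80, or -0.95 over those 4 regions. Iigp1 had 6 regions, and every one was lower in both OVX-EPC libraries. Summed over them, Iigp1 had 113 and 106 reads in M-EPCs and 16 and 27 in OVX-EPCs, or a signal of 109 ± 18.1 against 20.9 ± 6.60 (SD, n = 2). The groups were far apart. The log2 fold change was -2.35 ± 0.26 (SE), with an adjusted p of 3.2e-13 over all genes by limma. Iigp1 kept an adjusted p under 0.05 under every alternative setting tried.

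Only 2 of the 21 member regions that passed the filter, a signal of at least 10 in at least 2 libraries, differed at an adjusted p under 0.05, and both were of Iigp1 and lower. Of all regions tested, 0.402% were lower by this rule. Both Iigp1 regions passed the filter through M-EPCs alone, with an OVX-EPC signal under 10 in each library. Their place among the regions tested therefore rests on the difference itself. The first, chr18:60396245-60396644, lies downstream of the gene and is annotated as distal intergenic. It had 37 and 41 reads in M-EPCs and 4 and 9 in OVX-EPCs, with a log2 fold change of -2.51 ± 0.37 (SE; limma, adjusted p = 3.4e-04). The second, chr18:60388248-60388647, is intronic. It had 36 and 21 reads against 3 and 2, with a log2 fold change of -3.04 ± 0.50 (SE; limma, adjusted p = 0.0015). Without the second M-EPC library neither passed, and their adjusted p was 0.07 and 0.064, while without the first the intronic region had an adjusted p of 0.52.

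The promoter region of Iigp1, chr18:60375885-60376284, had 12 and 17 reads in M-EPCs and 0 and 2 in OVX-EPCs. Its groups did not overlap, and with a limma adjusted p of 0.21 over all regions it did not pass. The difference was not limited to regions assigned to the gene. Within 100 kb of its start lay 12 regions assigned to other genes. Of these, 10 were also lower in both OVX-EPC libraries, against 20.5% of all autosomal regions. None was higher in both, against 20.6% of all.

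**Figure D2:**
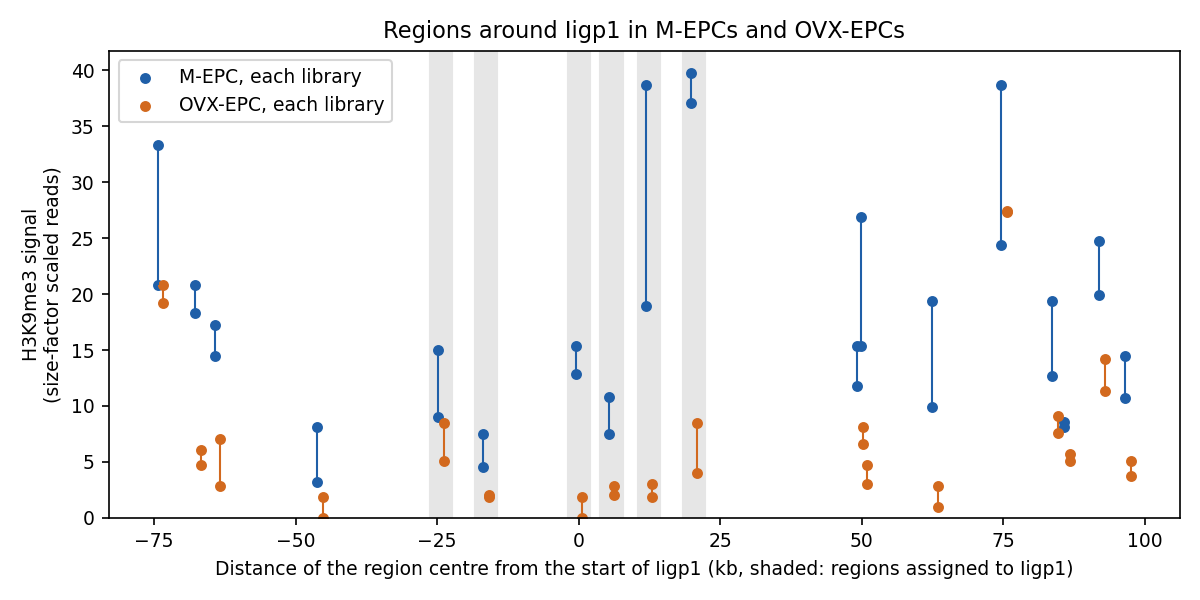
H3K9me3 signal (y axis, size-factor scaled reads) of the 18 regions within 100 kb of the Iigp1 start, by distance of the region centre from the start (x axis, kb); points are libraries, joined within a group, and shading marks the 6 regions of Iigp1. M-EPC points lie above both OVX-EPC points in all 6 shaded regions and in 10 of the other 12.

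Igtp, another GTPase of this family, had 36 and 33 reads in M-EPCs and 17 and 18 in OVX-EPCs. Its log2 fold change was -0.95 ± 0.31 (SE), and its limma adjusted p of 0.052 missed the threshold. The values came mainly from 1 of its 2 regions, chr11:58196585-58196984, which lies 2 to 3 kb before the start and had 23 and 20 reads against 8 and 4. The other had 13 and 13 against 9 and 14, so there the groups overlapped. Irgm1 and Tgtp1 had 1 region each, with 8 and 5 reads against 2 and 5 for Irgm1, and at most 4 reads in any library for Tgtp1.

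In total 4 member genes of the 19 tested differed at an adjusted p under 0.05, and all 4, Iigp1, Zbp1, Mx2 and Ifitm3, were lower in OVX-EPCs. Zbp1 and Ifitm3 needed M-EPCs to pass the filter, so this count leans on the difference itself. Of all genes tested, 2.26% were lower by this rule (301 lower and 415 higher). Scaling by TMM factors taken from the genes tested turned that split to 91 lower and 486 higher and left 2 member genes, Iigp1 and Zbp1. The authors' size factors put the median log2 fold change of the autosomal genes tested at -0.14, and those TMM factors put it at -0.03. For regions the medians were -0.17 and, with TMM factors from the regions tested, -0.02, so differences near that size carry the scaling in them.

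Zbp1, a sensor of left-handed Z-form nucleic acid that triggers cell death, had 23 and 33 reads in M-EPCs and 7 and 7 in OVX-EPCs. Its signal was 27.3 ± 3.61 against 6.85 ± 0.33 (SD, n = 2). Zbp1 passed the filter through M-EPCs alone, so its place among the genes tested rests on the difference itself. The log2 fold change was -1.84 ± 0.41 (SE), with an adjusted p of 0.0016 by limma. Both of its regions were lower without overlap. The promoter region had 13 and 16 reads against 6 and 5, and the downstream one 10 and 17 against 1 and 2. With all libraries kept, the adjusted p of the gene stayed under 0.05 under every alternative that gave one. DESeq2 called 1 member gene, Iigp1, and so did not call Zbp1. Among the other sensors, Ifih1, which binds long double-stranded RNA, had 5 and 7 reads against 2 and 5. Eif2ak2, the kinase that halts translation on double-stranded RNA, had 6 and 9 against 4 and 7, and its groups overlapped.

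Mx2 and Mx1 are dynamin-like GTPases that block viruses. Mx2 had 5 regions and 105 and 105 reads in M-EPCs against 57 and 71 in OVX-EPCs, a log2 fold change of -0.72 ± 0.22 (SE; limma, adjusted p = 0.03). Its 2 promoter regions within 1 kb had 34 and 41 against 19 and 29 reads, and 32 and 34 against 14 and 19. A distal region had 21 and 19 against 7 and 12. The remaining 2 overlapped between the groups. Mx1 had 27 and 13 reads against 11 and 10, with a limma adjusted p of 0.24.

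Ifitm3, a membrane protein that hinders virus entry, had 23 and 25 reads in M-EPCs and 10 and 10 in OVX-EPCs. Its log2 fold change was -1.19 ± 0.38 (SE; limma, adjusted p = 0.045), and both of its regions were distal intergenic. Its signal in OVX-EPCs, 9.79 ± 0.47 (SD, n = 2), was not at least 10 in both libraries. Ifitm3 thus needed M-EPCs to pass the filter, and its place among the genes tested leans on the difference itself. Bst2, which tethers budding virus to the cell, had 9 and 7 reads against 5 and 5. All 3 regions of the membrane factors were lower without overlap, against 20.5% of all autosomal regions. The calls of Mx2 and Ifitm3 were both lost under other scalings, edgeR and the loss of a single library of either group, except that Mx2 kept its call without the second M-EPC library.

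The guanylate-binding proteins, which coat microbial vacuoles, had a summed log2 ratio of -1.20 over 6 regions. Of the 6, 3 were lower without overlap, against 20.5% of all autosomal regions. Gbp7 had 12 and 35 reads in M-EPCs and 9 and 9 in OVX-EPCs (limma adjusted p = 0.086). The 2 M-EPC libraries were themselves far apart. Gbp3 had 17 and 8 against 3 and 7, and Gbp4 8 and 0 against 5 and 2. Among genes that are not members but belong to the induced set, Gbp8 and Gbp9 were the 2 of 16 tested that passed. Both were lower, where 2.26% of all genes tested were lower.

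The transcription factors were unlike each other. Irf7, which amplifies type I interferon production, had a single promoter region with 16 and 15 reads in M-EPCs and 5 and 7 in OVX-EPCs, a log2 fold change of -1.26 ± 0.53 (SE; limma, adjusted p = 0.14). Stat2 had 17 and 11 against 16 and 10, so its groups overlapped. Irf1 had 12 and 18 against 5 and 17, with 1 OVX-EPC library at the level of M-EPCs.

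The PYHIN proteins, which bind DNA in the nucleus or cytosol, had 6 regions in one cluster on chromosome 1 and a summed log2 ratio of -0.50. Ifi211 had 10 and 12 reads in M-EPCs against 9 and 2 in OVX-EPCs, where the 2 libraries differed widely (limma adjusted p = 0.34). Ifi204 had 11 and 11 against 9 and 7. These genes are close copies of one another. Reads that match several of them may have been lost with those of low mapping quality, or placed in the wrong copy, which was not tested. The 3 regions of the oligoadenylate synthetases, which make the activator of RNase L, all overlapped between the groups, and none had more than 9 reads in a library.

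Rtp4, Samd9l and Sp100 were, with Mx2, Iigp1 and Igtp, the 6 members with the most reads. Samd9l, which restrains viral translation, had 111 and 115 reads in M-EPCs and 66 and 95 in OVX-EPCs, a log2 fold change of -0.52 ± 0.21 (SE; limma, adjusted p = 0.12). Of its 3 regions, 2 were lower without overlap and 1 was higher without overlap, at 22 and 24 against 25 and 29 reads. None of the 3 is annotated as promoter. Rtp4, a chaperone of membrane receptors with 10 regions, had 80 and 80 reads against 50 and 61 (limma adjusted p = 0.14). All 10 are distal intergenic, up to 46663 bp from the start. Sp100, a nuclear body protein, had 21 and 25 against 13 and 20. Its promoter region overlapped between the groups, and its downstream region had 8 and 11 reads against 1 and 2.

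Rsad2, or viperin, makes a nucleotide that stops viral polymerases. It had 23 and 25 reads against 17 and 8, a log2 fold change of -0.98 ± 0.37 (SE; limma, adjusted p = 0.092). Its promoter region, which holds the core printed above, had 18 and 13 reads in M-EPCs and 9 and 5 in OVX-EPCs. Ifi35 was the single gene higher in both OVX-EPC libraries, with 10 and 10 reads against 18 and 13 (limma adjusted p = 0.47). Cmpk2, Ifi44, Isg20 and Parp14 overlapped between the groups.

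By annotation, the 24 promoter regions within 1 kb had a median log2 fold change of -0.66, against -0.26 for all regions of that class. Of the 24, 12 were lower without overlap, against 32.0% of all regions of the class. The 31 distal intergenic regions had -0.56, against 0.15 for all distal regions. Of the 31, 13 were lower without overlap, against 15.8% of all distal regions. The 6 regions 1 to 3 kb from a start and the 6 in introns or exons had medians of -0.09 and -0.02, close to -0.11 and -0.06 in all regions of those classes. Their summed log2 ratios were further apart, at -0.62 against -0.12 in all regions 1 to 3 kb from a start, and at -1.01 against -0.11 in all regions in introns or exons, where 2 of the 6 member regions are of Iigp1. Of the member regions annotated as promoter, 12 passed the filter, with log2 fold changes from -3.15 to 0.11. None had an adjusted p under 0.05 by limma, the smallest being 0.061. Some of the 12, among them those of Iigp1 and Irf7, passed through M-EPCs alone, so this range leans on the difference itself.

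**Figure D3:**
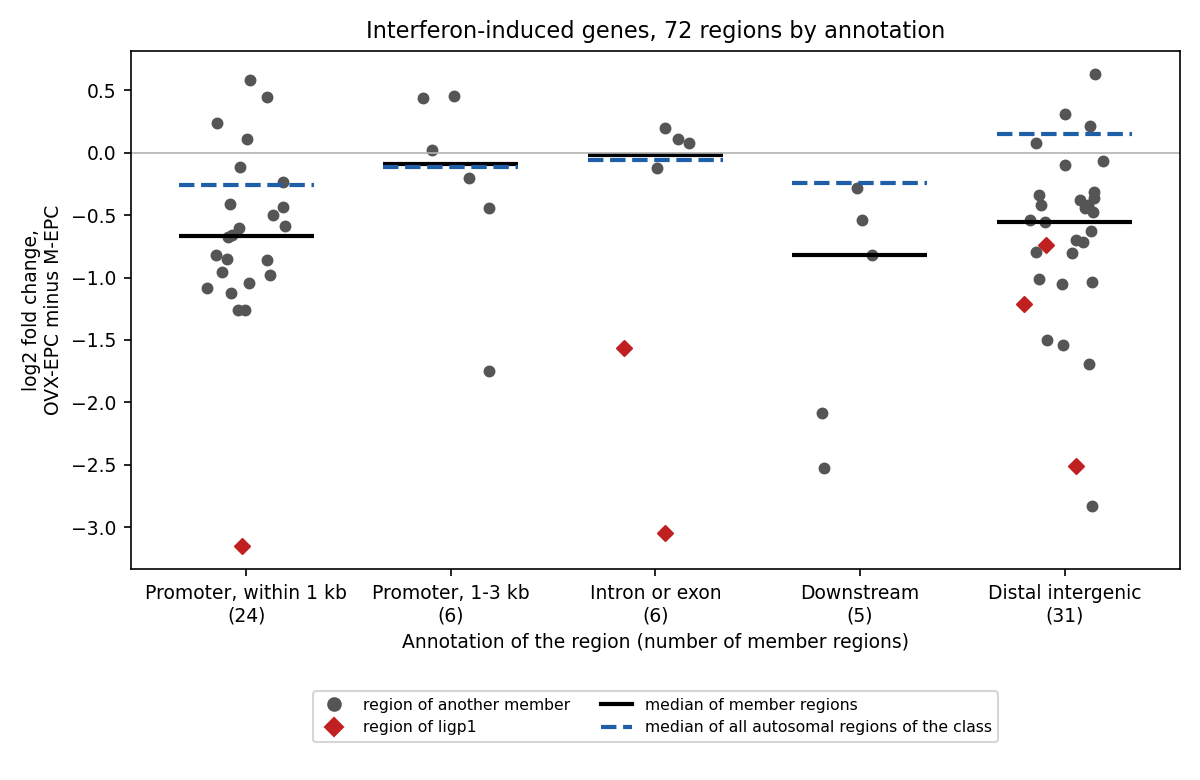
Log2 fold change (y axis, OVX-EPC minus M-EPC) of the 72 member regions by annotation class (x axis, number of regions); black lines are medians of the member regions and dashed blue lines medians of all autosomal regions of the class, and diamonds are regions of Iigp1. The black line lies below the blue one for promoter regions within 1 kb, downstream and distal regions.

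Regions with and without the response element core were also set side by side. The 15 member regions with the core had a summed log2 ratio of -0.62, and the 57 without it -0.84. All regions of Iigp1 are among the 57, and the members without Iigp1, with or without the core, had -0.64. The 418 promoter regions with the core that belong to no member had -0.20, and all promoter regions without it -0.23.

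F-EPCs were compared with M-EPCs and OVX-EPCs over the 31 regions they cover. Both comparisons with M-EPCs share the M-EPC libraries, so their values are given side by side only. Member regions took 13.1 and 11.5 of every 10000 reads in covered regions in M-EPCs, 9.29 and 8.44 in F-EPCs, and 8.90 and 8.60 in OVX-EPCs. Summed signal in the table of F-EPCs and M-EPCs was 328 and 274 in M-EPCs and 214 and 196 in F-EPCs, a log2 ratio of -0.55 against -0.08 over all covered regions. Between F-EPCs and OVX-EPCs the log2 ratio was 0.00, with sums of 218 and 199 against 211 and 207.

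Of the 31 regions, 12 were lower in both F-EPC libraries than in both M-EPC libraries (38.7%), against 20.9% of all covered regions, and 4 were higher, against 22.3% of all. Among promoter regions within 1 kb, 4 of 10 were lower and 1 higher, close to 38.0% and 9.1% of all covered regions of that class. Their median log2 fold change was -0.32, against -0.36 in the class, and their summed log2 ratio -0.68, against -0.38. Among distal intergenic regions, 5 of 16 were lower and 2 higher, against 15.7% and 27.5% of all covered distal regions. None of the 12 that passed the filter differed at an adjusted p under 0.05 by limma, where 1.62% of all regions tested were lower. DESeq2 and edgeR gave 0 as well. At an unadjusted p under 0.05 by limma there were 5 of the 12, beside 1852 of all 8139 regions tested. The 8 promoter regions among the 12 had log2 fold changes from -1.54 to -0.14. Some of the 8, such as that of Ifi211, passed the filter through M-EPCs alone, so this range leans on the difference itself.

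At the level of genes, Igtp and Rsad2 were lower in F-EPCs, 2 of 11 tested, where 6.55% of all genes tested were lower. Igtp had 36 and 33 reads in M-EPCs and 23 and 24 in F-EPCs, a log2 fold change of -0.91 ± 0.30 (SE; limma, adjusted p = 0.037). Rsad2 had 23 and 25 against 15 and 14, a log2 fold change of -1.06 ± 0.35 (SE; limma, adjusted p = 0.038). Both calls were lost when the libraries were scaled by TMM factors or by their totals, and without either F-EPC library. Irf1 had 12 and 18 reads against 9 and 5 (limma adjusted p = 0.058), Ifi211 10 and 12 against 8 and 2 (0.10), and Stat2 17 and 11 against 11 and 8 (0.21). For these 3 the groups did not overlap in signal.

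**Figure D4:**
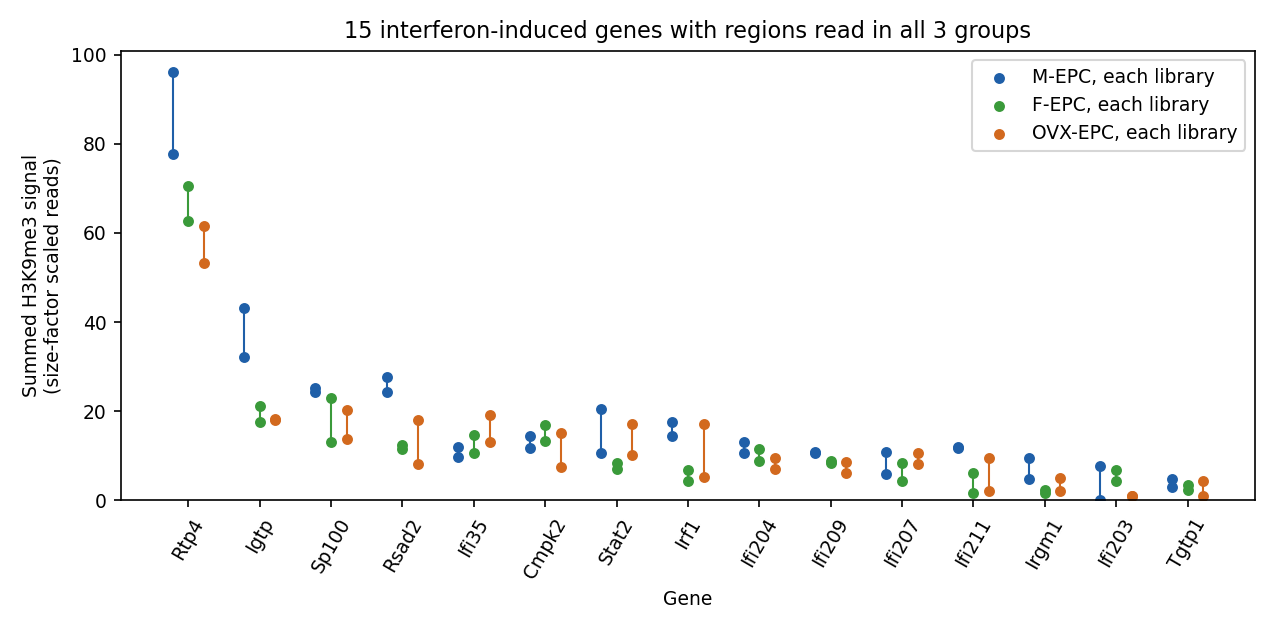
Summed H3K9me3 signal (y axis, size-factor scaled reads, common scale of 6 libraries) of the 15 genes with covered regions (x axis); points are libraries, joined within a group. M-EPC points lie above all F-EPC and OVX-EPC points for Igtp, Rsad2, Rtp4, Sp100, Ifi209 and Ifi211, while for Irf1 and Stat2 the OVX-EPC range reaches into that of M-EPCs.

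Between OVX-EPCs and F-EPCs no member passed the test. All 8 regions and all 8 genes tested had a limma adjusted p of at least 0.05, with 0 at an unadjusted p under 0.05 and 0 by DESeq2 and edgeR, where 0.0127% of all regions and 0.0188% of all genes tested differed. Of the 31 regions, 7 were lower in both OVX-EPC libraries, against 17.1% of all, and 3 higher, against 16.0% of all. With 2 libraries in a group, most members had too few reads to be tested or for a small difference to be detectable, and the absence of a call does not show that F-EPCs and OVX-EPCs had the same signal.

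Other genes of the pathway were counted from a list that the members do not include. Interferon genes themselves had 15 regions of 6 genes, and receptors and signalling genes 60 regions of 23 genes. No region of either passed in OVX-EPCs against M-EPCs. Other induced genes had 50 regions of 28 genes, of which 19 were lower in both OVX-EPC libraries and 0 were higher, beside 20.5% and 20.6% of all autosomal regions. Their summed log2 ratio was -0.42, against -0.06 over all autosomal regions. Lower signal was not limited to induced genes. Of the 60 regions of receptors and signalling genes, 33.3% were lower in both OVX-EPC libraries and 9 regions were higher. Their summed log2 ratio was -0.31. Interferon genes had 3 regions lower and 2 higher, and a summed log2 ratio of -0.25. Of all promoter regions, 29.99% were lower, with a summed log2 ratio of -0.22. These lists were not compared by annotation class. In F-EPCs against M-EPCs, regions of Socs1 and Socs3, which restrain receptor signalling, were lower, 2 of 14 tested among receptors and signalling genes. Of all regions tested there, 1.62% were lower. At the level of genes, Socs3 was lower, 1 of 5 tested in that list, and Ifi213, 1 of 7 tested among other induced genes. Of all genes tested there, 6.55% were lower. Without a filter, 12 of the 24 covered regions of receptors and signalling genes were lower in both F-EPC libraries and 3 were higher. Their summed log2 ratio was -0.47, against -0.54 for other induced genes, -0.07 for interferon genes and -0.08 over all covered regions. All covered promoter regions had -0.33.

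No region was assigned to 23 of the listed genes. They were Ifit1, Ifit3, Ifit3b, Ifi27, Ifi27l2a, Ifi205, Mndal, Oas1a, Oasl1, Isg15, Usp18, Irf9, Gbp2, Gbp6, Irgm2, Tgtp2, Ddx58, Dhx58, Trim30a, Parp9, Dtx3l, Xaf1 and Ly6e. Their H3K9me3 was not analysed here. The IFIT family and the ISG15 system were each left with 1 region, for Ifit2 with 6 and 7 reads in M-EPCs against 5 and 2 in OVX-EPCs, and for Herc6 with 9 and 4 against 4 and 3.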

How the data were processed

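H3K9me3 CUT&Tag libraries were sequenced by the authors as paired reads of 25 bp, aligned to mm10, cleared of duplicates and of reads with a mapping quality under 10, and counted in merged peaks. The study's methods name Bowtie2 where the processing notes name BWA. The deposited signal values are whole reads divided by 1 size factor for each library and table, and 100% of them returned to whole reads within 0.001. Deposited fold changes and p-values of the authors' own comparisons were not used.

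The members and the pathway lists were chosen with earlier results of these data known. For each table, limma 3.58.1 with a mean-variance trend (R 4.3.3) was fitted to log2(signal + 1) over all regions, or sums over regions with the same gene name, with a signal of at least 10 in at least 2 of 4 libraries, and p-values were adjusted by Benjamini-Hochberg over the whole table. Tables were normalized separately, so tests stayed within a table. DESeq2 1.42.0 and edgeR 4.0.16 (quasi-likelihood) on the recovered reads, other scalings, pseudocounts and filters, the replicate block and leaving out each library were alternatives. The scripts were tested on simulated data. Named genes were those that passed, the 6 with the most reads, the 5 with the smallest p among genes whose groups did not overlap, and promoter regions passing the filter. Genes in the text beyond that rule were chosen after their values were seen, to describe each family. Sequences are from RefSeq and GRCm38.p6, with starts from GENCODE M21.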

Additional observations from a re-analysis of the deposited data

How the results depend on the processing

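The number of member regions differing between OVX-EPCs and M-EPCs, 2 as reported, was 4 with no filter and 1 by DESeq2, and ranged from 0 to 3 when each library was left out, being 1 without the first and 0 without the second M-EPC library. The number of member genes, 4 as reported, was 2 under TMM factors, scaling to total reads, TMM factors from the genes tested, the filter at 30, edgeR and the replicate block, 1 by DESeq2, and 2 to 5 when each library was left out. In F-EPCs against M-EPCs the regions ranged from 0 to 2 with a library left out. The 2 genes became 0 under all 3 other scalings, DESeq2, edgeR and the replicate block, 1 with no filter and at the filter of 30, and 0 to 1 with a library left out. Same-numbered libraries share only a number, with correlations of their deviations between -0.10 and 0.02. In OVX-EPCs against F-EPCs every setting gave 0.

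The summed log2 ratio of -0.79 was -0.62 under TMM factors from the regions tested, -1.05 for regions at 30 or more, and -0.64 without Iigp1, and ran from -0.89 to -0.68 with a library left out. For promoter regions, -0.69 became -0.52 and -0.82 in the first 2 of these, and ran from -0.81 to -0.56 with a library left out. For F-EPCs against M-EPCs, -0.55 became -0.33 under TMM factors from the regions tested. The median of the member regions tested, -0.98, ran from -1.10 to -0.75 with a library left out. Regions can pass the filter through M-EPCs alone, so this median leans on the difference itself and supports nothing. Over all 72 regions it was -0.57. TMM factors from the features tested and the settings without Iigp1 were chosen after seeing the data.

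Promoter regions with small differences changed sign. Sp100 in F-EPCs against M-EPCs was 0.056 under TMM factors from the regions tested, 0.016 by DESeq2 and 0.024 by edgeR, and ran from -0.61 to 0.33 with a library left out. Stat2 in OVX-EPCs against M-EPCs was 0.039, 0.057 and 0.038 under the same 3 settings, and ran from -0.52 to 0.29 with a library left out. In the same comparison and with a library left out, Irf1 ran from -1.35 to 0.14, Igtp from -0.45 to 0.044 in its region nearer to the start, and Sp100 from -0.12 to 0.33. The causes were not tested. Few reads per region limit precision, since most members fell below the filter.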
